A study of Mus musculus with 8 samples.

Results

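The 31 genes described here set the brakes of the cell cycle, carry the response of the tumour suppressor p53, or belong to the enzymes and secreted proteins by which senescent cells are recognised. They were chosen by name: every transcript that the GENCODE M21 annotation assigns to one of these genes was taken, and the 31 genes stand among 18137 genes summed from the table. The samples are hearts of wild-type mice (genotype WT) from a study of cardiac aging, 4 libraries from sedentary animals and 4 from animals trained by swimming. Both groups carry the same genotype and the labels name no allele, transgene or agent. The labels give no age, strain, sex or length of training, and they number biological replicates 1 to 4 in each group without saying that each is a separate mouse.

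Cellular senescence is a lasting arrest of the cell cycle. Damaged DNA, short telomeres or other stress stabilise p53, which switches on the inhibitor p21, while the inhibitor p16 acts through the retinoblastoma protein; both routes stop the cyclin-dependent kinases (CDKs) that drive a cell into DNA synthesis. Adult cardiomyocytes have mostly left the cell cycle, so that in the heart these genes are read in muscle cells that do not divide as well as in fibroblasts, endothelial cells and macrophages. Levels below are FPKM, fragment counts corrected for transcript length and library size, summed over the transcripts of a gene. They put genes and libraries on a common scale. They are not corrected for RNA composition, so a library with less of a very abundant RNA can show higher values of the rest. In whole hearts, fewer cells of a type and less RNA per cell cannot be told apart.

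The promoters of 4 of the genes are shown as examples picked by hand. Their windows hold the motif of a factor that is known to act on genes of these families, and their values are given in full below. The same holds for Bax, Trp53 and Mdm4, which are not shown. Ccng1, Sesn1 and Mmp3 are also the genes with an unadjusted limma p below 0.05 in the test below. RefSeq windows of 300 bases on GRCm38.p6, 250 before and 50 from the start of transcription on, were found for 27 of the 31 genes, in 35 windows. Each sequence runs 5′ to 3′ along the gene, and the capitals mark the motif. The upstream window of Cdkn1a holds a match to the pattern of a full p53 site, here with a spacer (chr17:29090729-29091028, plus strand), and its capitals mark both half-sites. Ccng1 (chr11:40755237-40755536, minus strand) and Sesn1 (chr10:41887189-41887488, plus strand) hold a match to a single p53 half-site. Mmp3 (chr9:7445572-7445871, plus strand) holds the AP-1 motif TGANTCA, which is bound by dimers of the Jun and Fos proteins.
Cdkn1a: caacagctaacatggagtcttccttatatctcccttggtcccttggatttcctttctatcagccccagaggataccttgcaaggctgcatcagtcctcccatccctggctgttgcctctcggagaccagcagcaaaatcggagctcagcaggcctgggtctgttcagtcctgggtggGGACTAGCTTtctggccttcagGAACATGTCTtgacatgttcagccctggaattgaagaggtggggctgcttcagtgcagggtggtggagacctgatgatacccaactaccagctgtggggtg
Ccng1: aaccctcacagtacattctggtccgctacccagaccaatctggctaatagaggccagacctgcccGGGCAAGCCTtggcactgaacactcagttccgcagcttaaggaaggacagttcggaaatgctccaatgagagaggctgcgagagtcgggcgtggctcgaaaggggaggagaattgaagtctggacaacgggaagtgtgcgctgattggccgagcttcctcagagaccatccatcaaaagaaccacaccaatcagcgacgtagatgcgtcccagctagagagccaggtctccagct
Sesn1: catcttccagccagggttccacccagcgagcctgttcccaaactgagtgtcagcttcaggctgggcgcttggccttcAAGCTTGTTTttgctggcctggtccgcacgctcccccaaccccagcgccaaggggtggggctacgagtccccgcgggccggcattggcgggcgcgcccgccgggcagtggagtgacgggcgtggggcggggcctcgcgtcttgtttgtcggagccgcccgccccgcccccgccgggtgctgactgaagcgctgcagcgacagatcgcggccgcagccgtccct
Mmp3: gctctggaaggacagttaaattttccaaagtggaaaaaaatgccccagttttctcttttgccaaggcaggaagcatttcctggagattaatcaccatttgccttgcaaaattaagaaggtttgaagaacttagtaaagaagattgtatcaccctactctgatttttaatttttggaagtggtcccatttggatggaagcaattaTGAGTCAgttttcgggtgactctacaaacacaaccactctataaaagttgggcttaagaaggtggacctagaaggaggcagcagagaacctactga

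The motifs were searched on both strands, and a match is a run of letters, not a measured binding site. The p53 half-site was found in 11 of the 35 windows, belonging to 10 of the 27 genes (Aen, Bax, Ccng1, Cdkn1a, Ei24, Gadd45a, Il6, Mdm2, Sesn1 and Trp53), against 8.36% of all 32851 windows in the table. A full site, counted as 2 half-sites with at most 13 bases between them and therefore overlapping the half-site count, was found only in the Cdkn1a window among these genes, and in 24 windows or 0.0731% of the table. Its half-sites span the bases from -73 to -42 before the start and are separated by 12 bases. The bases directly after the downstream half-site miss the half-site pattern by a single letter, so they were neither counted nor marked. Which of these stretches p53 binds was not measured. The half-site of Ccng1 lies from -185 to -176 of the RefSeq start at 40755286, which is within the gene as GENCODE draws it (start at 40755311), and that of Sesn1 from -173 to -164. AP-1 motifs were found in the windows of Glb1, Il6, Mdm4 and Mmp3, from -46 to -40 in Mmp3, against 7.81% of all windows.

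Some libraries stood apart from their group. Sedentary replicate 4 held transcripts of other tissues: its hepatocyte markers summed to 49.1 FPKM against at most 1.27 FPKM elsewhere, and the adipocyte markers Cfd and Adipoq were at 12.0 and 2.80 FPKM in that library and at most 0.668 and 0.139 FPKM elsewhere. Swimming replicates 2 and 3 had the lowest level of mt-Co1, a mitochondrially encoded subunit of cytochrome c oxidase, at 12597 and 20079 FPKM against 28522 to 32015 FPKM in the other 6. The relative depth inferred from the lowest values was 0.871 to 1.00 in 7 libraries and 1.64 in swimming replicate 2, and total reads are unknown. Cardiomyocyte markers, the check of the tissue label, summed to between 4049 and 5050.4 FPKM in the 8 libraries. Some single markers in that sum were uneven. Mybpc3 was between 35.0 and 49.1 FPKM in sedentary replicates 1 and 2 and swimming replicate 1. In the other libraries it was between 0.791 and 1.76 FPKM. Nkx2-5 was at most 0.359 FPKM in sedentary replicates 1 and 3 and swimming replicate 1, and between 9.15 and 11.1 FPKM elsewhere. Whether the gene sums miss RNA of a gene in single libraries was not tested. Values without sedentary replicate 4 or swimming replicates 2 and 3 are given beside the genes they bear on most.

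Most of these genes were expressed in the heart. Over the 8 libraries, 9 of the 31 had a mean of 10 FPKM or more, 17 lay between 1 and 10 FPKM, and 1 (Tnfrsf10b) lay between 0.5 and 1 FPKM. Ccng1, which encodes cyclin G1, stood far above the rest at 251 ± 8.48 FPKM (SD, n = 4) in the sedentary and 232 ± 6.26 FPKM in the swimming libraries. Igfbp7, Sesn1, Igfbp5, Igfbp4, Ei24, Cdkn1a, Plk2 and Cdkn1b followed in this order of the mean, and the ranges of each neighbouring pair after Ccng1 overlapped over the 8 libraries. The remaining 4, Cdkn2a, Cdkn2b, Il6 and Pmaip1, had means below 0.5 FPKM and count as not measured.

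**Figure D1:**
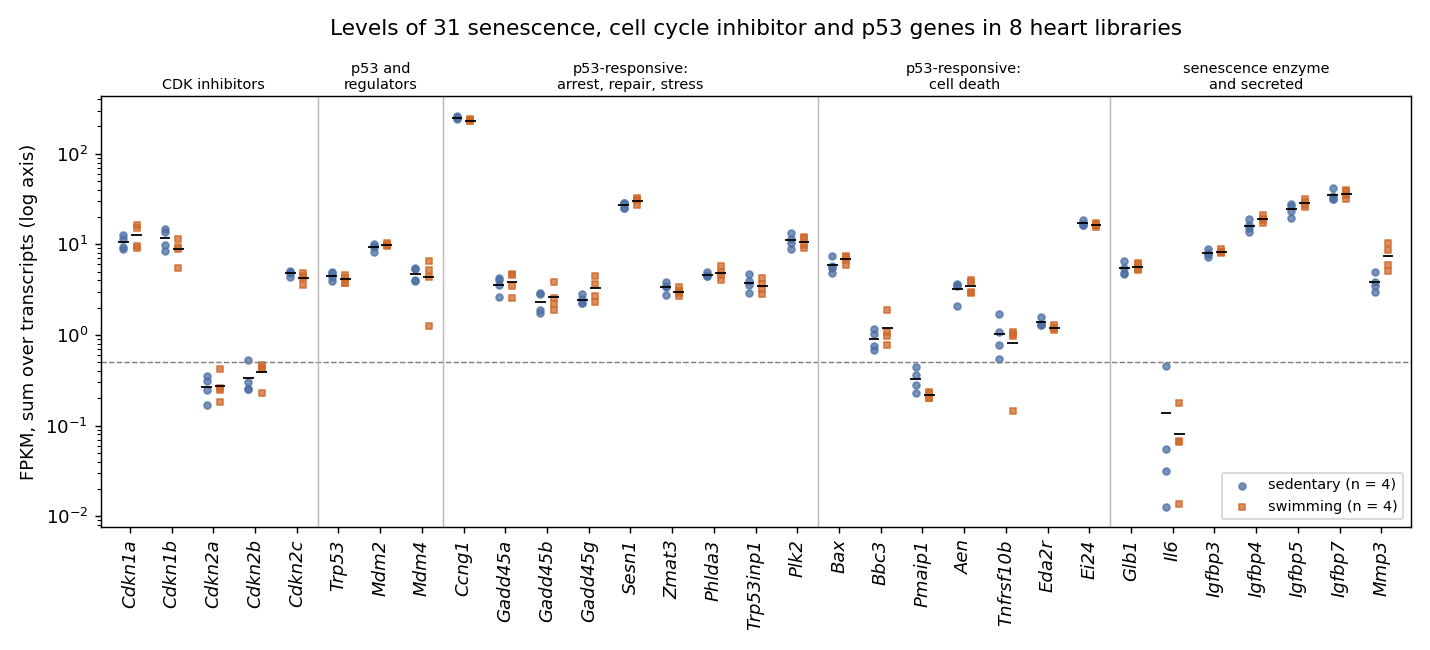
Level of each of the 31 genes in each library as FPKM on a log axis, ordered by role; circles are sedentary and squares swimming libraries (n = 4 each), bars are group means and the dashed line is the filter of 0.5 FPKM. Ccng1 lies above 200 FPKM in all 8 libraries, and Cdkn2a, Cdkn2b, Pmaip1 and Il6 have means below the line.

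None of the genes passed the test for a difference between swimming and sedentary libraries. The test, limma on log2(FPKM + 0.5) with Benjamini-Hochberg adjustment over all 11674 genes with a mean of at least 0.5 FPKM, included 27 of the 31 genes and called 0 of them in either direction, with a smallest adjusted p of 0.586. Across all genes tested it called 2, or 0.0171%. At an unadjusted limma p below 0.05 there were 3 of the 27, with Mmp3 and Sesn1 higher and Ccng1 lower in the swimming libraries, against a background of 860 genes or 7.37%. The log2 fold change was positive for 16 and negative for 11 of the 27, with a median of 0.054, against 58.7% positive and a median of 0.030 over all genes tested. For 23 of the 27 genes the estimate lay within 0.25 of 0 on the log2 scale, and the median distance from an estimate to either end of its 95% interval was 0.27.

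**Figure D2:**
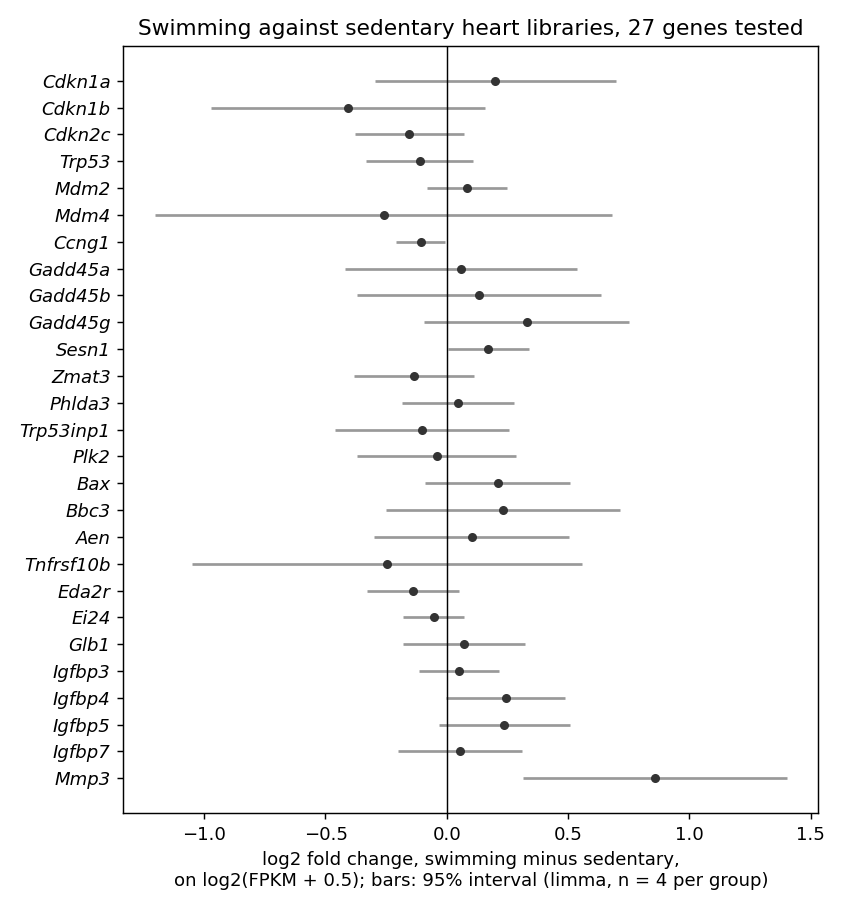
Log2 fold change of swimming against sedentary libraries for the 27 genes tested, on the log2(FPKM + 0.5) scale, with 95% intervals from limma (n = 4 per group). The interval of Mmp3, from 0.31 to 1.401, lies above 0 and that of Ccng1, from -0.21 to -0.01, below 0 before adjustment, and most others cover 0.

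The inhibitors of cyclin-dependent kinases are the brakes themselves. Cdkn1a, which encodes p21 and is the best known target of p53, was measured at 9.29, 8.99, 12.7 and 11.5 FPKM in the sedentary libraries 1 to 4 and at 9.08, 15.1, 16.5 and 9.62 FPKM in the swimming libraries. Swimming replicates 2 and 3 were the highest of the 8, and the other swimming libraries lay inside the sedentary range. The means were 10.6 ± 1.79 and 12.6 ± 3.78 FPKM, a log2 fold change of 0.20 with a 95% interval from -0.30 to 0.70 and an adjusted p of 0.844. Without swimming replicates 2 and 3 it was -0.16.

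Cdkn1b encodes p27, which holds resting cells out of the cycle. Its levels were 14.6, 9.96, 8.54 and 13.6 FPKM in the sedentary and 5.45, 9.32, 11.3 and 8.99 FPKM in the swimming libraries. The lowest value was swimming replicate 1, the groups overlapped, and the log2 fold change was -0.41 (interval -0.97 to 0.16, adjusted p 0.733). It was -0.21 without swimming replicate 1 and -0.67 without swimming replicates 2 and 3. Cdkn2c, which encodes the CDK4 and CDK6 inhibitor p18, ranged from 4.34 to 5.08 FPKM in the sedentary and from 3.56 to 4.86 FPKM in the swimming libraries, with a log2 fold change of -0.15 (adjusted p 0.751).

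The inhibitors p16 and p15, which are used as marks of senescence in aged tissue, were at the bottom of the range. Cdkn2a, whose transcripts encode p16 and the p53 activator ARF, was listed between 0.168 and 0.418 FPKM, and Cdkn2b, which encodes p15, between 0.231 and 0.525 FPKM. Both groups covered much the same range in each gene, and no fold change is given under the filter. Of the transcripts, Cdkn2a-201 lay between 0.0522 and 0.352 FPKM, and Cdkn2a-202 was listed at 0 in 5 of the 8 libraries and reached 0.301 FPKM in sedentary replicate 1.

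Trp53 encodes p53 itself, Mdm2 the ubiquitin ligase that degrades p53 and is in turn switched on by it, and Mdm4 a relative of Mdm2 that blocks p53 from activating its targets. Trp53 was measured at 3.90, 4.95, 4.33 and 4.78 FPKM in the sedentary and 3.79, 4.28, 3.77 and 4.62 FPKM in the swimming libraries. These ranges overlapped, with a log2 fold change of -0.11 (interval -0.33 to 0.11, adjusted p 0.802). Mdm2 varied little, from 8.23 to 10.2 FPKM in the sedentary and from 9.67 to 10.4 FPKM in the swimming libraries, a log2 fold change of 0.084 (interval -0.08 to 0.25, adjusted p 0.801).

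Mdm4 was the most uneven of the 3. Its levels were 5.54, 5.34, 4.04 and 3.92 FPKM in the sedentary and 1.26, 5.24, 4.32 and 6.59 FPKM in the swimming libraries. Swimming replicate 1 was the lowest and swimming replicate 4 the highest of all 8, so that the log2 fold change of -0.26 (adjusted p 0.895) was 0.17 without swimming replicate 1. The low value came with a single transcript, Mdm4-210, which was at 0.229 FPKM in that library and between 3.12 and 5.56 FPKM in the other 7. Whether it is a low level of the gene or RNA missed by the gene sum was not tested.

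The genes by which p53 halts cells and answers stress held both the highest level and the narrowest spread. Ccng1, which takes part in the feedback between p53 and Mdm2, was measured at 241, 246, 254 and 261 FPKM in the sedentary and 235, 228, 227 and 240 FPKM in the swimming libraries. Every swimming library lay below every sedentary library. Such a separation, downward, was found in 1 of the 27 genes and in 185 or 1.58% of all genes tested. The log2 fold change was -0.11 ± 0.0439 (SE), with an unadjusted limma p of 0.0401 and an adjusted p of 0.665.

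Sesn1 encodes sestrin 1, a p53 target that restrains the growth kinase complex mTORC1. It was measured at 28.4, 28.7, 25.5 and 25.2 FPKM in the sedentary and 30.8, 27.4, 30.8 and 32.7 FPKM in the swimming libraries. Swimming libraries 1, 3 and 4 were above all sedentary libraries and swimming replicate 2 was inside their range. The log2 fold change was 0.17 ± 0.0721 (SE), with an unadjusted limma p of 0.0463 and an adjusted p of 0.671.

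The GADD45 proteins sense stress and DNA damage and activate MAP kinase signalling. Gadd45g was measured at 2.84, 2.24, 2.49 and 2.27 FPKM in the sedentary and 2.72, 3.69, 4.50 and 2.30 FPKM in the swimming libraries, again with swimming replicates 2 and 3 highest. Its log2 fold change of 0.33 (interval -0.09 to 0.75, adjusted p 0.716) was 0.025 without those libraries. Gadd45a, from 2.53 to 4.68 FPKM, and Gadd45b, from 1.75 to 3.85 FPKM, overlapped between the groups, with log2 fold changes of 0.059 and 0.13, and both estimates turned negative when single libraries were left out.

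The other arrest and stress genes also overlapped. They are Zmat3, an RNA-binding protein, Phlda3, a membrane-binding inhibitor of the kinase Akt, Trp53inp1, which acts in cell death and autophagy, and the kinase Plk2. Group means were 3.37 ± 0.453 and 3.02 ± 0.297 FPKM for Zmat3, 4.63 ± 0.193 and 4.83 ± 0.716 FPKM for Phlda3. They were 3.78 ± 0.752 and 3.48 ± 0.600 FPKM for Trp53inp1, and 11.05 ± 1.95 and 10.7 ± 1.46 FPKM for Plk2. Log2 fold changes ran from -0.13 to 0.045, with adjusted p between 0.791 and 0.957. Over the 9 genes of this role 5 estimates were positive and 4 negative.

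Among the genes of p53-dependent cell death, Bax encodes the protein that opens the outer mitochondrial membrane, and Bbc3 (PUMA) and Pmaip1 (NOXA) encode proteins that release it. Bax was measured at 4.82, 5.70, 7.45 and 5.49 FPKM in the sedentary and 6.77, 7.37, 7.17 and 5.91 FPKM in the swimming libraries. Sedentary replicate 3 was the highest of the 8, and the log2 fold change was 0.21 (interval -0.09 to 0.51, adjusted p 0.745). Bbc3 was at 0.907 ± 0.229 and 1.18 ± 0.491 FPKM, with its highest value, 1.90 FPKM, in swimming replicate 1 and an adjusted p of 0.817. Pmaip1 was under the filter, between 0.200 and 0.438 FPKM.

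Eda2r encodes a receptor of the tumour necrosis factor family for ectodysplasin A2. It was measured at 1.59, 1.30, 1.33 and 1.28 FPKM in the sedentary and 1.14, 1.19, 1.29 and 1.19 FPKM in the swimming libraries. Only swimming replicate 3 reached into the sedentary range, and the log2 fold change was -0.14 (interval -0.33 to 0.05, adjusted p 0.725). Tnfrsf10b, the death receptor for the ligand TRAIL, had the widest spread of the death genes relative to its mean, from 0.540 to 1.71 FPKM in the sedentary and from 0.145 to 1.09 FPKM in the swimming libraries. Its log2 fold change was -0.25, and 0.065 without swimming replicate 4, the lowest library. Ei24, an endoplasmic reticulum protein, lay at 17.0 ± 0.928 and 16.4 ± 0.630 FPKM, and the p53-induced nuclease gene Aen at 3.20 ± 0.730 and 3.43 ± 0.550 FPKM. Adjusted p was 0.880 for Tnfrsf10b, 0.834 for Ei24 and 0.902 for Aen, and 3 of the 6 death genes tested had positive estimates.

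Senescent cells are recognised by raised lysosomal beta-galactosidase, the product of Glb1, and by secreted proteins such as interleukin 6, insulin-like growth factor binding proteins and matrix metalloproteinases. All 6 tested genes of this role had positive estimates, with a median log2 fold change of 0.15 against 0.030 over all genes tested, and none passed the test. Mmp3, which encodes the matrix-degrading enzyme stromelysin 1, was measured at 3.82, 2.97, 4.92 and 3.51 FPKM in the sedentary and 5.90, 8.68, 10.4 and 5.02 FPKM in the swimming libraries. Every swimming library lay above every sedentary library, narrowly so for swimming replicate 4 and sedentary replicate 3. This separation, upward, was found in 1 of the 27 genes and in 378 or 3.24% of all genes tested.

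The mean of Mmp3 was 3.81 ± 0.822 FPKM in the sedentary and 7.49 ± 2.47 FPKM in the swimming libraries, a ratio of 1.97. On the log2 scale its fold change was 0.86 ± 0.235 (SE, interval 0.31 to 1.401), with an unadjusted limma p of 0.00670 and an adjusted p of 0.586. Without swimming replicates 2 and 3 it was 0.48, and without sedentary replicate 4 it was 0.83. Mmp3 is one of the 4 genes with the AP-1 motif printed or named above.

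Igfbp4 and Igfbp5 encode binding proteins that hold insulin-like growth factors outside the cell. Igfbp4 was measured at 13.6, 16.3, 18.9 and 15.2 FPKM in the sedentary and 21.04, 18.95, 17.1 and 18.6 FPKM in the swimming libraries. Igfbp5 was measured at 26.4, 23.5, 27.7 and 19.4 FPKM in the sedentary and 27.1, 29.5, 31.6 and 25.8 FPKM in the swimming libraries. In both genes the swimming libraries tended to the upper end but the groups overlapped, with log2 fold changes of 0.24 and 0.24 and adjusted p of 0.673 and 0.701. The estimate for Igfbp5 was 0.14 without swimming replicates 2 and 3, and also 0.14 without sedentary replicate 4.

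The rest of this role showed smaller estimates. Igfbp7, the most abundant of the secreted proteins here, was at 34.9 ± 4.80 and 36.2 ± 3.81 FPKM, Igfbp3 at 8.00 ± 0.709 and 8.28 ± 0.355 FPKM, and Glb1 at 5.42 ± 0.810 and 5.69 ± 0.507 FPKM. Their log2 fold changes were between 0.050 and 0.069 and their adjusted p between 0.881 and 0.921. Il6 was under the filter, between 0.0126 and 0.450 FPKM, with its highest value in sedentary replicate 3.

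**Figure D3:**
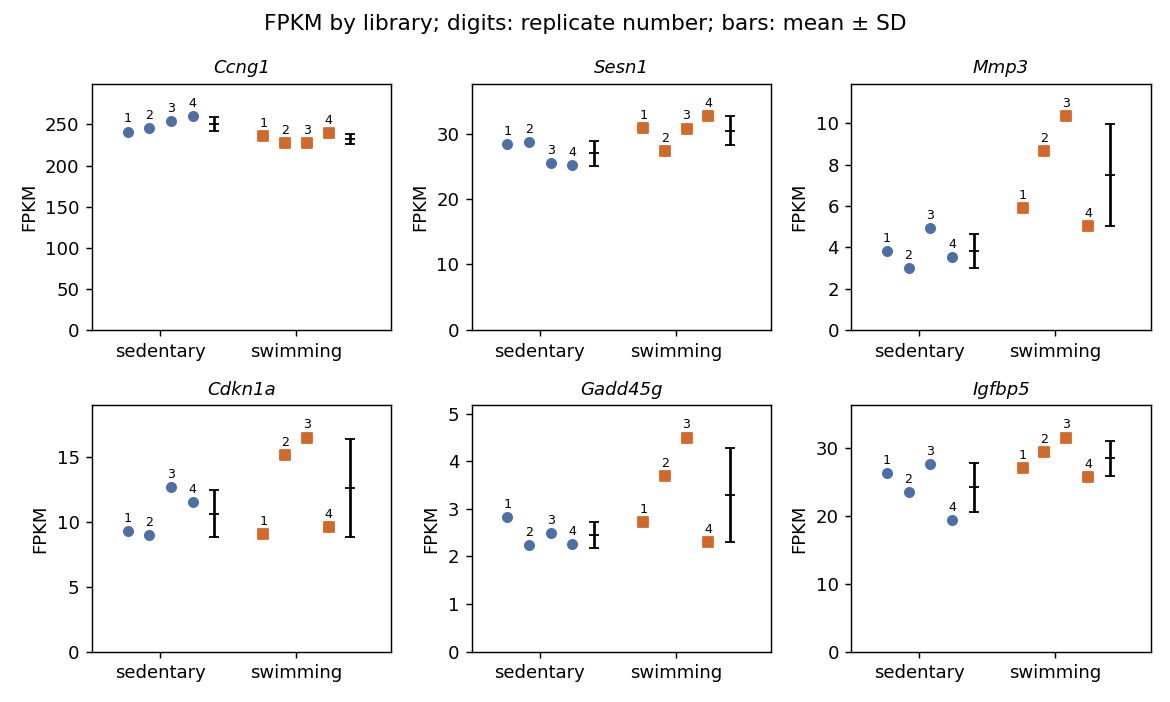
FPKM of Ccng1, Sesn1, Mmp3, Cdkn1a, Gadd45g and Igfbp5 in each library, with replicate numbers and, beside each group, its mean ± SD (n = 4). All swimming libraries lie below the sedentary ones for Ccng1 and above them for Mmp3, and swimming replicates 2 and 3 are the highest of the 8 for Mmp3, Cdkn1a, Gadd45g and Igfbp5.

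Several of these genes shared the same high libraries. Swimming replicates 2 and 3 were the highest pair of the 8 for 5 of the 27 genes (Cdkn1a, Gadd45g, Igfbp5, Mmp3 and Aen), against 5.003% of all genes tested. They were the lowest pair for 1 of the 27, Ccng1, and the share of such genes over all genes was not computed. This pair was chosen after the values were seen. These are the libraries with the lowest mt-Co1. Leaving both out turned the sign of the log2 fold change for Cdkn1a, Gadd45a, Gadd45b, Plk2, Aen and Igfbp7, and left 12 positive and 15 negative estimates. Rescaling the libraries without the mitochondrially encoded genes turned none of the 27. The part of mitochondrial RNA in these differences was not tested.

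**Figure D4:**
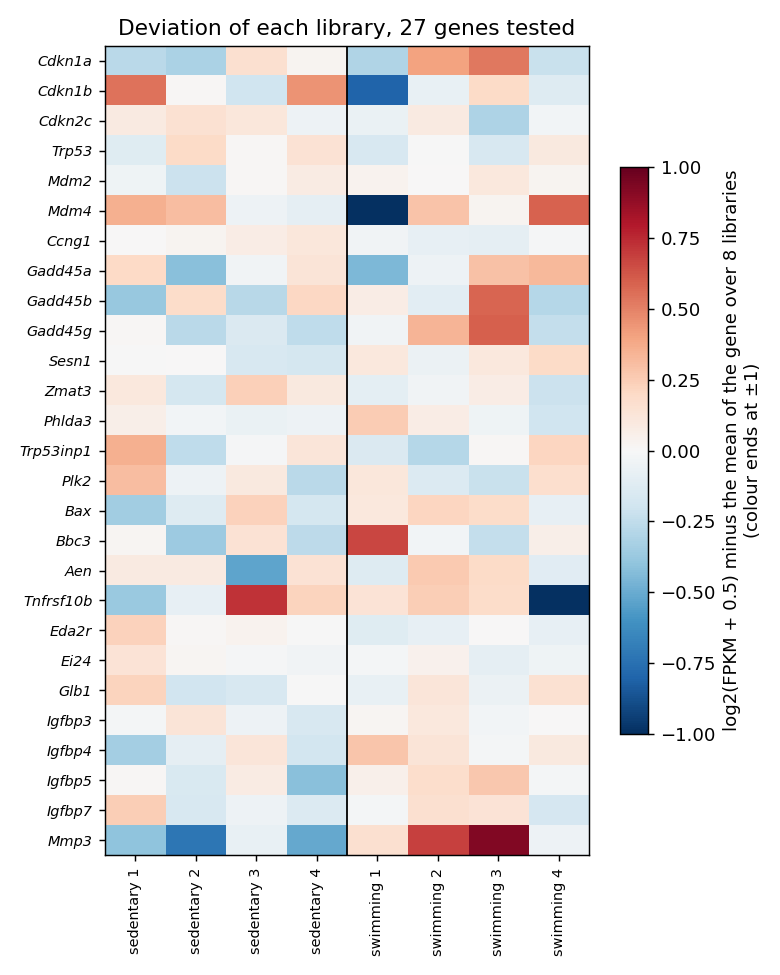
Deviation of each library from the mean of the gene over the 8 libraries, on the log2(FPKM + 0.5) scale, for the 27 genes tested; red is above and blue below the mean, and the line separates sedentary from swimming libraries. Mmp3, Cdkn1a and Gadd45g are reddest in swimming replicates 2 and 3, Mdm4 and Cdkn1b are bluest in swimming replicate 1, and Tnfrsf10b is bluest in swimming replicate 4.

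The transcripts behind the gene sums were compared as well. Of 67 transcripts of these genes in the table, 38 had a mean of at least 0.5 FPKM, and limma over all 22614 such transcripts called 0 of them, with a smallest adjusted p of 0.847. It called 12 or 0.0531% of all transcripts tested. At an unadjusted limma p below 0.05 there were 4 of the 38, namely Mmp3-201, Ccng1-201, Cdkn2c-201 and Cdkn2c-202, against 5.51% of all transcripts tested.

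The pair of Cdkn2c transcripts had log2 fold changes of opposite sign, -0.43 for Cdkn2c-201 and 0.31 for Cdkn2c-202. Cdkn2c-201 was measured at 3.19, 3.63, 3.86 and 2.75 FPKM in the sedentary and 2.34, 2.81, 1.63 and 2.75 FPKM in the swimming libraries. Cdkn2c-202 was measured at 1.67, 1.46, 1.08 and 1.597 FPKM in the sedentary and 1.96, 2.05, 1.92 and 1.68 FPKM in the swimming libraries. The groups overlapped for Cdkn2c-201. For Cdkn2c-202 they were apart only narrowly, with sedentary replicate 1 at 1.672 and swimming replicate 4 at 1.679 FPKM. As a share of the gene, Cdkn2c-201 held 65.6%, 71.3%, 78.1% and 63.2% in the sedentary and 54.4%, 57.8%, 45.9% and 62.1% in the swimming libraries, with no overlap. By an exact two-sided permutation test over the 70 assignments of the libraries this gave p = 0.0286, the smallest the design allows, and an adjusted p of 0.229 over the 8 genes with at least 2 transcripts at 0.5 FPKM.

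Cdkn1a can start at an upstream promoter, whose window is printed above, or at a downstream one. Cdkn1a-201, which starts downstream at base 29093769 of chromosome 17 (mm10), held most of the RNA, between 7.44 and 14.4 FPKM. Cdkn1a-202 starts at base 29090979 behind the match to the full p53 pattern. It was at 0.544, 0, 1.31 and 0 FPKM in the sedentary and 1.18, 1.64, 0.496 and 0.634 FPKM in the swimming libraries. Cdkn1a-203, annotated from base 29097900, also takes part of the gene. It was at 0.643, 0.898, 0.822 and 1.08 FPKM in the sedentary and 0.459, 1.42, 1.64 and 1.48 FPKM in the swimming libraries. The share of Cdkn1a-201 was 87.8% ± 3.38 in the sedentary and 81.7% ± 3.93 in the swimming libraries (exact permutation, adjusted p 0.229).

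Trp53 is spliced in the mouse to alternative C-termini. In the annotation Trp53-202 and Trp53-206 begin their last exon at base 69591254 of chromosome 11 (mm10), 96 bases before the start used by Trp53-201 and Trp53-203 at 69591350. The longer form held 40.1%, 59.8%, 61.5% and 60.8% of Trp53 RNA in the sedentary and 61.5%, 27.5%, 23.2% and 53.4% in the swimming libraries. Swimming replicates 2 and 3 were the lowest, sedentary replicate 1 was next, and the other 5 libraries lay together. For the leading transcript, Trp53-202, the share was 54.9% ± 11.4 and 38.9% ± 21.3 (exact permutation, adjusted p 0.503). Without swimming replicates 2 and 3 the swimming mean was not lower but 2.20 percentage points above the sedentary one.

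**Figure D5:**
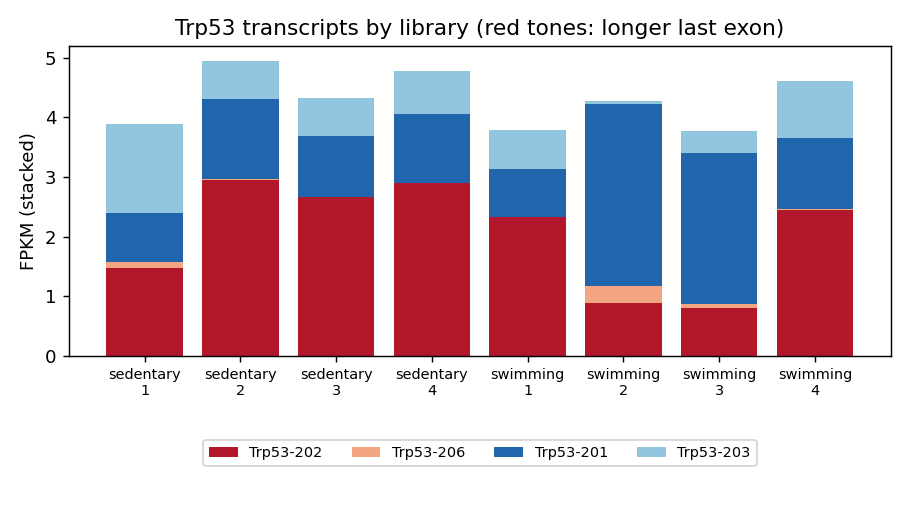
FPKM of the 4 Trp53 transcripts in each library, stacked; red tones are the transcripts with the longer last exon and blue tones those with the shorter one. The total stays between 3.77 and 4.95 FPKM while the red part shrinks to 27.5% and 23.2% in swimming replicates 2 and 3.

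In the other 5 genes with several transcripts the shares overlapped between the groups. Cdkn1b-201 held 53.9% ± 18.2 and 43.6% ± 9.58, Sesn1-201 64.4% ± 8.23 and 71.2% ± 5.69, and Bax-203 58.9% ± 9.77 and 56.4% ± 10.3 of the gene. Ei24-201 ranged from 29.3% to 84.4% within the swimming group alone, and Igfbp7-201 held at least 93.6% in every library. The exact permutation tests of these 5 gave adjusted p between 0.503 and 0.686. Exons of Cdkn1a, Gadd45a, Bax, Ei24, Glb1 and Igfbp7 overlap those of another gene, and the sources used here do not say whether strand was kept, so these genes can share reads with the neighbour.

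Genes that stand around these in the pathway were read from lists chosen by function, and none of their members passed the test either. Of the other CDK inhibitors and pocket proteins 5 of 6 were tested, with 4 positive and 1 negative estimates. They include Cdkn2d, which encodes the inhibitor p19, at 4.34 ± 0.745 and 5.39 ± 0.585 FPKM in sedentary and swimming libraries (adjusted p 0.672). Rbl2, Cdkn1c and Rb1 had adjusted p of 0.776, 0.955 and 0.974.

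Of 21 kinases, ligases and cofactors of p53, 18 were tested, 11 with positive and 7 with negative estimates. Atm encodes the kinase that signals DNA breaks to p53, and it was at 0.247, 0.0935, 0.291 and 0.0297 FPKM in the sedentary and 0.576, 0.633, 1.29 and 1.03 FPKM in the swimming libraries. Every sedentary library was below the filter of 0.5 FPKM and every swimming library above it, so that Atm entered the test only through the group where it is high, and nothing is read from its log2 fold change of 1.04 ± 0.208 (SE, adjusted p 0.434). Rchy1, a ubiquitin ligase for p53, was at 5.44, 5.14, 5.39 and 4.57 FPKM in the sedentary and 5.44, 5.89, 11.3 and 10.97 FPKM in the swimming libraries (adjusted p 0.665). Its swimming replicates 3 and 4 stood apart from the other 6 libraries. For Kat5 and Bcl6 the adjusted p was 0.729 and 0.758.

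Of 34 other p53-responsive genes, 32 were tested, with 14 positive and 18 negative estimates and a median log2 fold change of -0.014. The smallest adjusted p there were 0.694 for Trp53inp2 and 0.702 for both Ptp4a3 and Perp, with 0.739 for Rrm2b. Of 36 cyclins, CDKs and proliferation genes only 22 passed the filter, and these had 14 positive and 8 negative estimates with a median of 0.054. Pcna, the sliding clamp of DNA synthesis, was at 12.99 ± 1.16 and 14.1 ± 0.519 FPKM (adjusted p 0.719), and E2f6, Cdk4 and Hmgb2 had adjusted p from 0.783 to 0.811.

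Of 35 other secreted senescence-associated genes, 28 were tested, with 18 positive and 10 negative estimates and a median of 0.024. The chemokine gene Ccl8 was at 5.74 ± 1.35 and 8.998 ± 2.18 FPKM (adjusted p 0.642). Ccl7 was at 7.71 ± 3.25 and 4.14 ± 1.56 FPKM and Ccl2 at 5.26 ± 2.34 and 2.76 ± 0.964 FPKM, the reverse order (both adjusted p 0.671). In both genes sedentary replicates 3 and 4 were the highest of all libraries, and the groups overlapped. Mmp2, a gelatinase, was at 10.2 ± 4.02 and 13.7 ± 1.55 FPKM (adjusted p 0.719).

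Immediate-early genes, which include the Fos and Jun genes of AP-1, were set beside Mmp3 and the GADD45 genes. Of 22 tested, 4 had positive and 18 negative estimates, with a median of -0.18, against 58.7% positive over all genes tested. Their summed level was 151, 136, 379 and 205 FPKM in the sedentary and 145, 181, 185 and 143 FPKM in the swimming libraries. It was highest in sedentary replicates 3 and 4, and the other sedentary libraries lay near the swimming ones. The genes with the smallest p were Nr4a3, Egr3, Egr2 and Nr4a1, with adjusted p between 0.608 and 0.729.

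Markers of other cell types were read in the same libraries, and of the cardiomyocyte markers 4 of 10 estimates were positive. Macrophage and monocyte markers summed to between 189 and 199 FPKM in the sedentary and between 227 and 256 FPKM in the swimming libraries, without overlap. All 11 macrophage estimates were positive, with a median of 0.26, against 58.7% positive over all genes tested. None passed the test, and none of the 11 was at 0 in any library. In 5 of the 11 every swimming library was above every sedentary one, against 3.24% of all genes tested. Fibroblast markers summed to between 268 and 351 FPKM and between 310 and 345 FPKM, with 8 of 10 estimates positive. Fibroblasts and macrophages can make several of the secreted proteins above, and their part in the values of Mmp3, Igfbp4 and Igfbp5 was not tested.

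Endothelial markers had 6 of 10 positive estimates, smooth muscle and pericyte markers 6 of 9, and mesothelial markers 2 of 3. T and B cell markers summed to between 1.39 and 1.68 FPKM in the sedentary and between 0.928 and 1.10 FPKM in the swimming libraries, without overlap. None of them passed the filter, so no direction is read from this sum. Of the neutrophil markers, the 1 tested had a positive estimate. The 3 hepatocyte markers tested and the adipocyte marker Cfd passed the filter only through sedentary replicate 4, so no direction is read from them. Fabp4, the other gene tested from the adipocyte list, was between 164 and 218 FPKM in all 8 libraries. Adipoq was at most 0.139 FPKM outside sedentary replicate 4, so Fabp4 is not read as a measure of fat tissue. Without sedentary replicate 4 the log2 fold changes were 0.14 for Sesn1, -0.089 for Ccng1 and 0.24 for Cdkn1a, against 0.17, -0.11 and 0.20 with it.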

How the data were processed

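Per the labels' protocols, ribosomal RNA was digested from total heart RNA with RNase H, and random hexamers primed the cDNA. Per the file headers, the authors deposited FPKM per transcript for 8 libraries. The submitters' processing notes name HISAT2, Salmon 0.8.2, STAR 2.5.1a, featureCounts 1.4.6-p5 and Subread, and the build mm10. The tool behind the FPKM values is not given in the sources used. Of 51169 transcripts in the table, 45742 carry Ensembl identifiers. GENCODE M21 named 45676 of these, and 5427 assembled transcripts (11.3% to 12.5% of the FPKM total) are outside the gene sums.

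FPKM were summed per gene. Genes with a mean of at least 0.5 FPKM were tested on log2(FPKM + 0.5), a scale that understates the change of low genes, with limma 3.58.1 in R 4.3.3 (lmFit, eBayes with trend, two-sided, group only) and Benjamini-Hochberg adjustment over all of them at 0.05. Transcripts were tested likewise, and transcript shares by exact permutation. Total reads are unknown, so no counting interval is given. P-values measure the spread between these samples, which may be technical. The fit was tested on simulated data. Alternatives covered the pseudocount, filter, scaling, variance model, transcript choice, replicate block and single libraries. Shares and figures were made in Python 3.11.15 (matplotlib 3.10.9, scipy 1.17.1, pandas 2.3.3).

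The genes and lists were chosen with earlier results of these data known. All 31 genes are named, and of each other list up to 4 tested genes with the smallest unadjusted p. Marker lists are given as counts and sums, with single markers named where libraries stood apart.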

Additional observations from a re-analysis of the deposited data

Results flagged for a closer look

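In groups of 4 libraries, a value was picked out where its gap to the nearest other library as a share of the range of the group passed Dixon's 95% critical value. Chance picks about 1 in 20 groups, and 6 of the 70 groups examined were picked. Aen was at 2.11 FPKM in sedentary replicate 3, below the other sedentary libraries. Tnfrsf10b was at 0.145 FPKM in swimming replicate 4, below the other swimming libraries. Eda2r was at 1.59 FPKM in sedentary replicate 1, above the other sedentary libraries. The share of Trp53-202 in Trp53 was 37.9% in sedentary replicate 1, below the other sedentary libraries. The share of Igfbp7-201 in Igfbp7 was 93.6% in sedentary replicate 1 and 94.6% in swimming replicate 2, in each case below the rest of the group.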

How the results depend on the processing

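No gene and no transcript among the 31 genes was called under any alternative run, and no gene of the other lists under the 3 run for them, with a smallest adjusted p of 0.452 over 27 genes. Of 539 fold changes under up to 20 alternatives, 523 kept their direction and 16 turned. Leaving out 1 library gave -0.50 to 0.17 for Mdm4 (0.17 without swimming 1), -0.071 to 0.22 for Gadd45a (negative without sedentary 2, swimming 3 or swimming 4), -0.039 to 0.25 for Gadd45b (negative without swimming 3), -0.034 to 0.12 for Phlda3 (negative without swimming 1), -0.14 to 0.054 for Plk2 (positive without sedentary 1 or swimming 3), -0.057 to 0.17 for Aen (negative without sedentary 3) and -0.41 to 0.065 for Tnfrsf10b (positive without swimming 4). Without swimming libraries 2 and 3, an alternative chosen after seeing the data, as was the rescaling without mitochondrial genes, the values were -0.16 for Cdkn1a, -0.032 for Gadd45a, -0.040 for Gadd45b, 0.12 for Plk2, -0.071 for Aen and -0.067 for Igfbp7. The cause was not tested. Mmp3 ranged from 0.48 to 1.02, Sesn1 from 0.13 to 0.32 and Ccng1 from -0.15 to -0.076.

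The count over all genes, 2, was 1 at a pseudocount of 0.1 and under quantile normalization, 0 with the replicate block, 6 with the highest transcript per gene, 0 without swimming libraries 2 and 3, and 0 to 5 with 1 library left out. It was 0 without swimming replicate 2, 1 without sedentary replicate 4 or swimming replicate 1, 4 without sedentary replicate 2 or 3, and 5 without swimming replicate 4. The count over all transcripts, 12, was 7 at a mean of at least 1 FPKM, 0 with the replicate block, 28 without swimming libraries 2 and 3, and 7 to 25 with 1 library left out (7 without sedentary 1, 20 without sedentary 2, 25 without swimming 3). Libraries with the same number did not deviate together (correlations -0.054, 0.015, -0.0033 and 0.023). Such correlations cannot exclude that same-numbered libraries were handled together, and the labels do not say. With the replicate block in limma the adjusted p was 0.826 for Mmp3, Sesn1 and Ccng1. Depth and low values limit Cdkn2a, Cdkn2b, Il6 and Pmaip1.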
